A study of Mus musculus with 22 samples.

Results

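Imprinted genes are expressed mainly from the copy inherited from 1 parent, and 10 of them that act on growth are described here: H19, Meg3, Cdkn1c and Grb10, which are known to be expressed from the maternal copy, and Peg3, Peg10, Dlk1, Mest, Plagl1 and Ndn, which are known to be expressed from the paternal copy. They were chosen by gene symbol, and all 10 have a row in each of 3 tables of differential expression, among 18632 genes that the 3 tables share. The tables come from RNA sequencing of mouse cells that carry Col2.3GFP, a transgene in which part of the collagen I promoter switches on green fluorescent protein in cells of the osteoblast lineage. The groups used were undifferentiated embryonic stem cells (ESC, passages 20 to 30, 3 samples), their osteoblast progeny in culture (ESC-OB, passages 20 to 30, 3 samples), cells sorted for GFP out of those cultures (sorted GFP+, 3 samples, passage not given), undifferentiated induced pluripotent stem cells (iPSC, passages 10 to 20, 2 samples) and the osteoblast progeny of these (iPSC-OB, passages 10 to 20, 2 samples). Differentiated groups had spent 6 days as embryoid bodies, with 0.1 µM retinoic acid from day 3 until its removal at day 5, and were taken at 35 to 40 days. Each source is 1 reporter line as labelled, the stem cells were kept on embryonic fibroblast feeders or without feeders, and the labels do not say which samples had feeders or which were made with a kit for very small amounts of RNA. Whether the samples of a group were separate cultures is not labelled, so a p-value reflects only how far these samples spread, which may be technical. The other samples of the study were not analysed here.

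Most imprinted genes lie in clusters, in which a control region that is methylated on 1 parental copy decides which copy each gene is read from. Many paternally expressed genes favour growth of the embryo and placenta, while maternally expressed ones such as Cdkn1c and Grb10 restrain it, and the group as a whole is active in fetal tissue and falls silent in most organs after birth. In the skeleton, Dlk1 and Mest are known from mesenchymal precursors, and Cdkn1c from the growth plate, where it slows the division of maturing chondrocytes. The counts do not separate the parental copies, so every value below is the sum of both.

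In the RefSeq annotation of build GRCm38.p6, which is not the build that the submitters' notes name (mm9), the maternally expressed members lie at chr7:142575530-142578146 (H19, a long non-coding RNA), chr12:109540996-109571729 (Meg3, also non-coding), chr7:143458339-143461059 (Cdkn1c) and chr11:11930499-12037428 (Grb10). The paternally expressed members, all protein-coding, lie at chr7:6703892-6730462 (Peg3), chr6:4747306-4760517 (Peg10), chr12:109452485-109463336 (Dlk1), chr6:30733506-30748466 (Mest), chr10:13090832-13131694 (Plagl1) and chr7:62348277-62349928 (Ndn). Dlk1 and Meg3 are thus neighbours read from opposite parental copies.

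RefSeq promoter windows, from 250 bases before to 50 after an annotated start in build GRCm38.p6, were matched by symbol for 7 members with 11 starts. They were searched on both strands for TGCCGC (reverse complement GCGGCA), the hexamer that ZFP57 is known to bind when methylated, and the matches cannot overlap another searched motif because no other was searched. Of all 32851 windows 11.6% held it, and the median window held 7 CG pairs. The 4 windows shown are those of the neighbours Dlk1 and Meg3, which are read from opposite copies, and of Mest and Plagl1, whose promoters are known to be methylated on the maternal copy. Capitals mark the hexamer on either strand.
Dlk1, chr12:109452573-109452872, + strand: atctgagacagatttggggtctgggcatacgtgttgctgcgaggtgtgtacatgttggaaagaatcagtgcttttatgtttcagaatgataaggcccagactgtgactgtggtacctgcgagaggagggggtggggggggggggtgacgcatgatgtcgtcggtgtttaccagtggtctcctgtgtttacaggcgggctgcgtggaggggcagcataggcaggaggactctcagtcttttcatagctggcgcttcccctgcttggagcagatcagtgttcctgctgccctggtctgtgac
Meg3, chr12:109540746-109541045, + strand: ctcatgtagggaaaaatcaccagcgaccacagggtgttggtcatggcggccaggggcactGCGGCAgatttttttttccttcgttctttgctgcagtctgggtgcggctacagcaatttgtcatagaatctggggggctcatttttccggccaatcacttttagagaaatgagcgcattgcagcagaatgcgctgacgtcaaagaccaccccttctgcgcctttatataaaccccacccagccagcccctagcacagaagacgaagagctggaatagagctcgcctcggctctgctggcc
Mest, chr6:30737800-30738099, + strand: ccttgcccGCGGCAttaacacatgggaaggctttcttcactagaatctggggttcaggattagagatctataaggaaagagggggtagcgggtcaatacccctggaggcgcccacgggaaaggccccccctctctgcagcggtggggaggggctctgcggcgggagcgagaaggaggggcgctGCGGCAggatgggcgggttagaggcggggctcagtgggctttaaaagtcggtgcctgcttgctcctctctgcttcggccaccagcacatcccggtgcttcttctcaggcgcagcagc
Plagl1, chr10:13090582-13090881, + strand: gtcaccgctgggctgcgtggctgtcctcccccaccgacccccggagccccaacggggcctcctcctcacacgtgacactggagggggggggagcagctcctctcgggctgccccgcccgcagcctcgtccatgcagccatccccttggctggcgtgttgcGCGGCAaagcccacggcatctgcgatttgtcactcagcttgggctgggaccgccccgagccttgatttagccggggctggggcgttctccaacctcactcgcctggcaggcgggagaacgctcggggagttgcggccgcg
The Mest window held 2 matches and 17 CG pairs, the Plagl1 window 1 match and 26 CG pairs, the Meg3 window 1 match and 13 CG pairs, and the Dlk1 window 9 CG pairs and no match. An upstream start of Grb10 at chr11:12037371-12037670 (- strand) held 45 CG pairs, a number reached by 1.93% of all windows, and 1 match. The windows of Peg3 (13 CG pairs) and Ndn (11) held no match. Other starts of Mest (chr6:30733256-30733555), Meg3 (chr12:109545148-109545447) and Grb10 (chr11:12027922-12028221) held none either. Of the 11 member windows, 5 held a match, among them a Mest window at chr6:30737803-30738102 that nearly coincides with the one shown. A match describes these letters and is not evidence of binding.

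Of the members, 3 are hosts of microRNAs in the same annotation, and the mature sequences are shown because the host RNA is what these tables count. Capitals mark the seed, bases 2 to 8.
mmu-miR-675-5p, inside H19: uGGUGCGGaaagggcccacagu
mmu-miR-675-3p, inside H19: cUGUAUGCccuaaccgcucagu
mmu-miR-335-5p, inside Mest: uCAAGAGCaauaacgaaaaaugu
mmu-miR-770-5p, inside Meg3: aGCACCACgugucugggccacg
No seed is shared among the 4. Mir675 and Mir770 have no row in the tables, and Mir335 has a base mean of 0.224 in the ESC fit and 1.06 in the iPSC fit, so the microRNAs themselves are not described.

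The files give no value per sample, so each group is described by an estimated level in CPM (reads per 1000000 of the group), derived from the authors' base means and fold changes, with no error of its own. By size factor, the libraries of the ESC fit came to an estimated 4.49 to 30.1 M reads (the sorted cells being the deepest, at 22.4 to 30.1 M). Those of the iPSC fit came to 10.1 to 17.7 M. These are size factors times the summed base mean of a fit, and not counts of each library's own reads. The values of 1 read place 3 libraries on the iPSC side, against 2 in the labels. Summed over 5 pluripotency markers the level was 4888 CPM in ESC and 1950.15 in iPSC, and 11.3, 14.3 and 19.8 CPM in ESC-OB, sorted GFP+ and iPSC-OB. Summed over 6 osteoblast markers it was 12.1 CPM in ESC, 5065 in ESC-OB, 10872 in sorted GFP+, 727 in iPSC and 2619 in iPSC-OB. Most of the osteoblast sum was collagen I, which fibroblasts also express (Col1a1 2587 and Col1a2 2434 CPM in ESC-OB). Of the more specific osteoblast markers, Ibsp was at 16.7, 578 and 113 CPM in ESC-OB, sorted GFP+ and iPSC-OB, and Runx2 at 25.5, 16.8 and 16.3 CPM. Sp7 (0.74, 2.33 and 0.62 CPM) and Bglap (0.83, 0.54 and 1.16 CPM) were low in each. By the difference of changes tested below, 0 of the 6 osteoblast markers were called between sorted and unsorted cells. Of all genes 24.5% were called in either direction, by a test that is conservative because both changes share the ESC libraries. Ibsp differed by 5.05 with a standard error of 2.25 (adjusted p = 0.0875) and Col1a1 by 1.08 with one of 0.45 (adjusted p = 0.0623). Runx2 (-0.66) and Bglap (-0.69) went the other way, so the lack of calls does not settle whether the sort enriched these markers. The undifferentiated iPSC also carried collagen I (Col1a1 405 and Col1a2 314 CPM), which made up most of their osteoblast sum. Ibsp was at 4.21, Runx2 at 2.71, Sp7 at 0.62 and Bglap at 0.15 CPM in iPSC. The 5 fibroblast or feeder genes summed to 129.6 CPM in iPSC, against 7.82 in ESC.

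In ESC-OB, 9 of the 10 imprinted genes rose against ESC and none fell, including all 4 maternally and 5 of 6 paternally expressed ones. Among the 18208 genes tested there, 38.6% rose and 31.0% fell. The non-coding RNA H19 and Dlk1, an EGF-repeat membrane protein of precursor cells, moved most. The median log2 change was 2.95 for the maternally and 1.32 for the paternally expressed members, against 0.26 for all genes, and the ranges of the classes (1.29 to 8.54 and 0.29 to 9.14) overlapped. Calls throughout are adjusted p under 0.05, and a standard error follows each ± sign.

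H19 was estimated at 7.28 CPM in ESC, 2898 CPM in ESC-OB and 541 CPM in sorted GFP+. The authors' deposited tables give it a log2 change of 8.54 ± 0.41 in ESC-OB (a fitted 371-fold, adjusted p = 6.78e-94) and 6.06 ± 0.41 in sorted GFP+ (adjusted p = 4.46e-48). Both differentiated groups were far above ESC, and the unsorted cultures were higher than the sorted cells. Meg3, the other non-coding member, was at 83.7 CPM in ESC, 449 in ESC-OB and 566 in sorted GFP+. It rose by 2.32 ± 0.27 and 2.60 ± 0.27 in the authors' deposited tables (adjusted p = 9.22e-17 and 8.33e-21), and its levels in ESC-OB and sorted GFP+ did not differ beyond their error. Cdkn1c, the cyclin-dependent kinase inhibitor p57, was at 9.71, 124.7 and 465 CPM in the same order, which put the sorted cells highest. Its changes in the authors' deposited tables were 3.58 ± 0.35 and 5.42 ± 0.35 (adjusted p = 2.87e-23 and 3.84e-52). Grb10, an adaptor that restrains insulin and IGF receptor signalling, was at 94.7, 248 and 169 CPM. It rose in ESC-OB by 1.29 ± 0.37 (adjusted p = 8.04e-04), while its value of 0.68 ± 0.37 in sorted GFP+ did not pass (adjusted p = 0.0879, the authors' deposited tables).

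**Figure D1:**
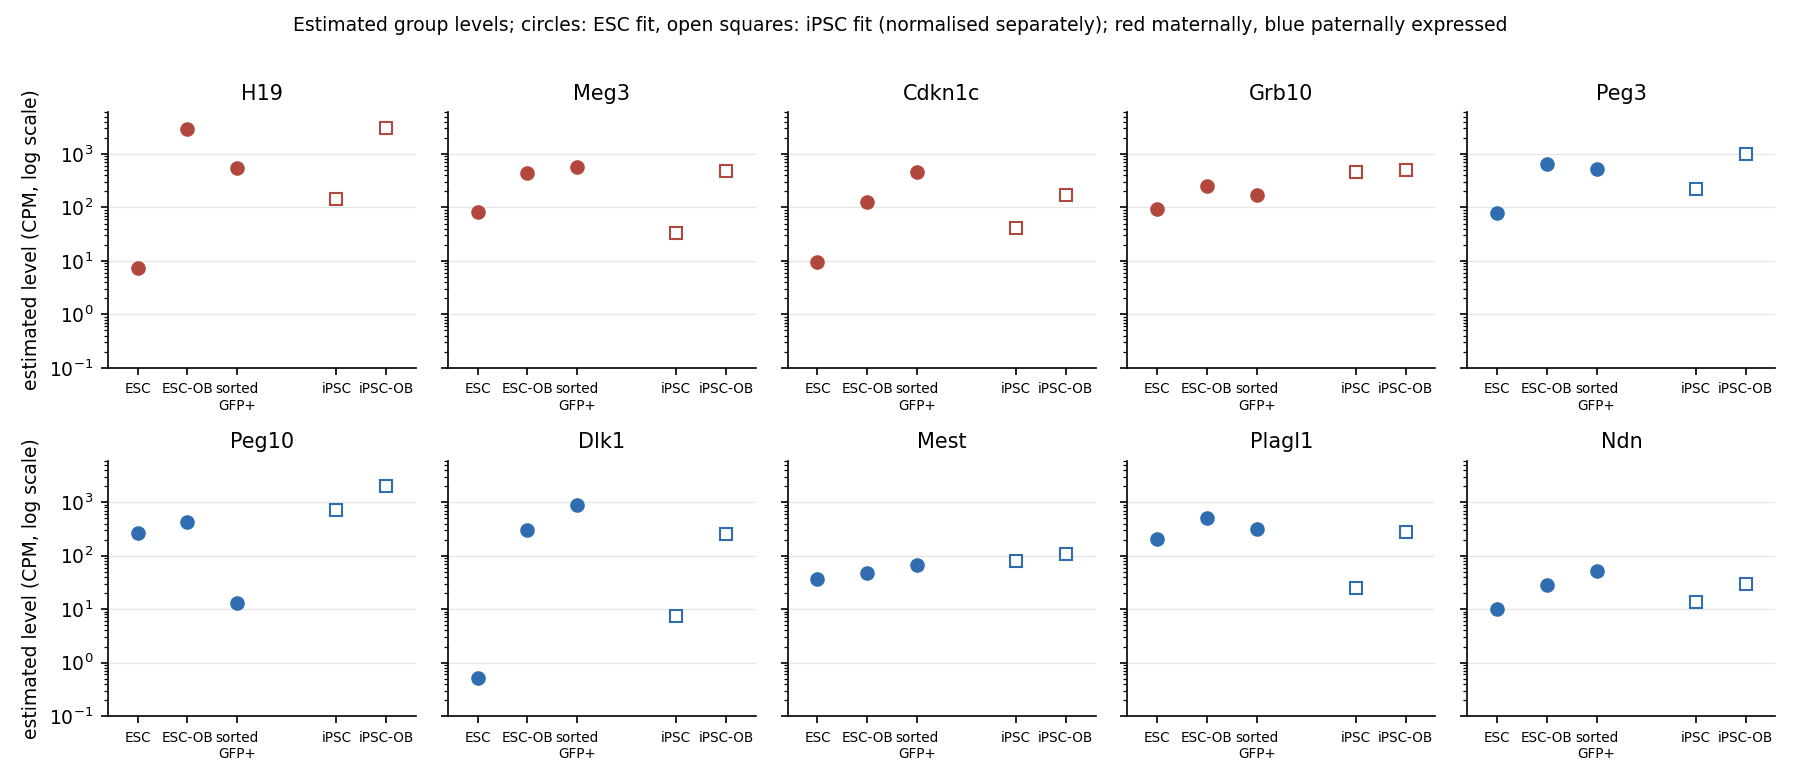
Estimated group level of each imprinted gene (vertical axis, CPM on a log scale) in the 3 groups of the ESC fit (filled circles) and the 2 groups of the iPSC fit (open squares), maternally expressed genes in red and paternally expressed ones in blue. H19 and Dlk1 rise most from the stem cells, and Peg10 is lowest in the sorted cells at 13.3 CPM, with no error bars because the files hold no value per sample.

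Among the paternally expressed members, Dlk1 was estimated at 0.51 CPM in ESC, 309 in ESC-OB and 897 in sorted GFP+. The ESC level corresponds to about 15.1 reads over 3 libraries, so it is low but above the floor of 3 reads (0.102 CPM). The authors' deposited tables give Dlk1 changes of 9.14 ± 0.46 and 10.62 ± 0.46 (adjusted p = 7.52e-86 and 5.48e-116). Peg3, a zinc finger protein known for roles in fetal growth and maternal behaviour, was at 80.3, 660 and 514 CPM. It rose by 2.94 ± 0.16 and 2.52 ± 0.16 in the authors' deposited tables (adjusted p = 1.56e-69 and 9.23e-52). Ndn, which encodes the MAGE family protein necdin, was at 9.87, 27.8 and 52.2 CPM, a smaller rise of 1.39 ± 0.34 and 2.24 ± 0.33 in the authors' deposited tables (adjusted p = 7.31e-05 and 4.53e-11). Plagl1, a zinc finger factor known to regulate other imprinted genes, was at 202, 515 and 317 CPM, highest in the unsorted cultures. It rose by 1.25 ± 0.37 in ESC-OB (adjusted p = 0.00118) and stood at 0.49 ± 0.37 in sorted GFP+ (adjusted p = 0.219) in the authors' deposited tables.

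Mest, a hydrolase-like protein of mesoderm, had a narrow range of 36.4, 47.6 and 68.1 CPM from ESC to ESC-OB to sorted GFP+. Its value in ESC-OB was 0.29 ± 0.33 (adjusted p = 0.437), and it rose by 0.75 ± 0.32 in sorted GFP+ (adjusted p = 0.0308, the authors' deposited tables). Re-centred on the median gene (of those with a base mean of 10 or more), which lay 0.21 above 0 in the sorted comparison, the latter was 0.54 with adjusted p = 0.127 and no longer passed. Peg10, a retrotransposon-derived gene that the placenta requires, was the 1 member that fell in a comparison. It was at 266 CPM in ESC, 437 in ESC-OB and 13.3 in sorted GFP+. The authors' deposited tables give it a rise of 0.61 ± 0.26 in ESC-OB (adjusted p = 0.0286) and a fall of 4.48 ± 0.27 in sorted GFP+ (adjusted p = 1.72e-62). The small rise in ESC-OB was 0.42 with adjusted p = 0.138 after re-centring on the median gene, which lay 0.19 above 0 there.

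In sorted GFP+ against ESC, 7 of the 10 members rose, Peg10 fell, and Grb10 and Plagl1 did not pass. Over all 18588 tested genes 39.1% rose and 32.4% fell. The median log2 change was 4.01 for the 4 maternally expressed members, of which 3 rose, and 1.49 for the 6 paternally expressed ones, of which 4 rose and 1 fell, against 0.28 for all genes. The ESC-OB and sorted comparisons use the same ESC libraries and are not independent of each other.

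**Figure D2:**
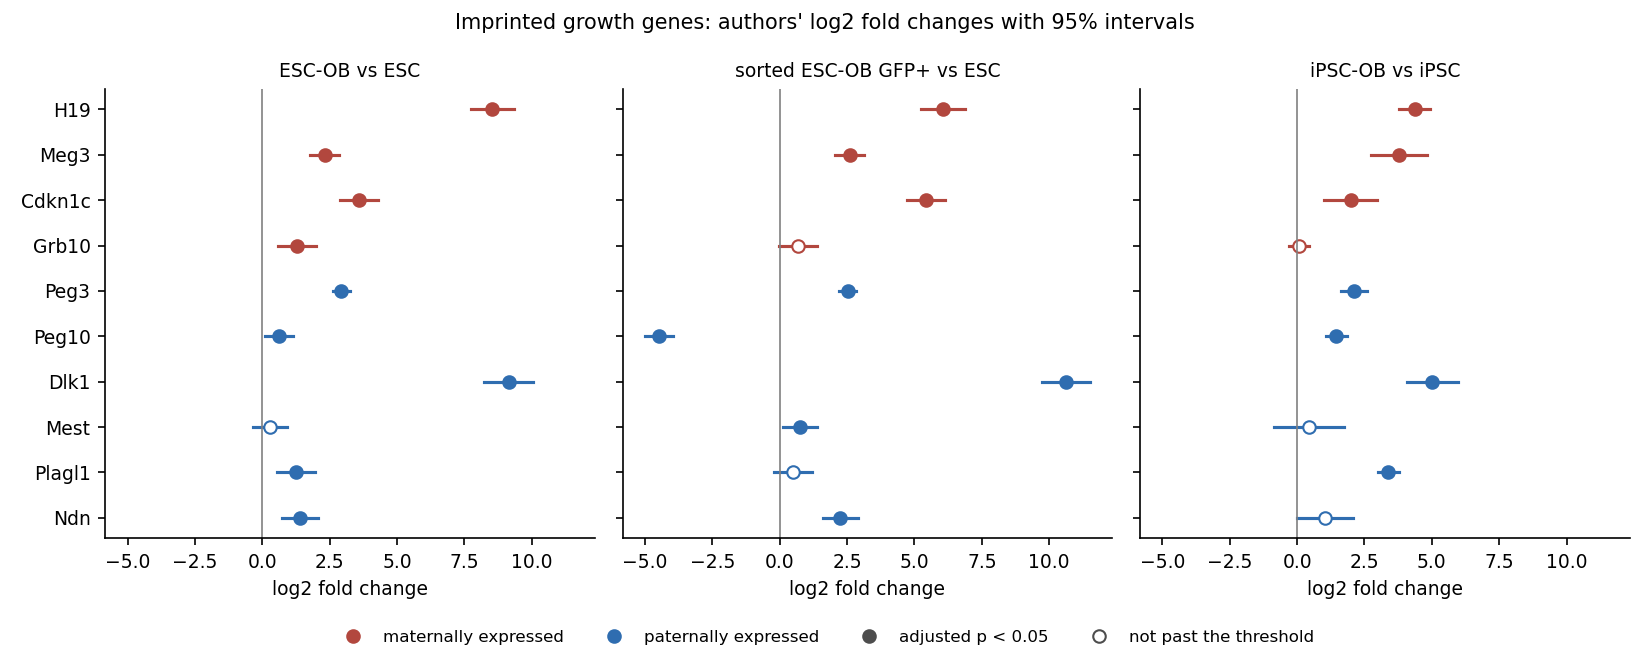
The authors' log2 fold change of each imprinted gene (horizontal axis) with its 95% interval in the 3 comparisons, maternally expressed genes in red and paternally expressed ones in blue, filled where adjusted p is under 0.05. Peg10 in the sorted cells (-4.48) is the 1 filled point left of 0.

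The sorted cells were compared with the unsorted cultures by the difference of the 2 changes, with standard errors added in squares and Benjamini-Hochberg adjustment over 18588 genes. Both changes use the same ESC libraries, so this counts the ESC error in each, which makes the test conservative and the intervals wide. Of the 10 members 3 were called, 1 higher in the sorted cells (Cdkn1c) and 2 lower (Peg10 and H19). Of all 18588 genes 24.5% were called in either direction (2136 higher and 2418 lower), so the count of members is near that share. Peg10 differed by -5.10 ± 0.37 (adjusted p = 7.59e-40), an estimated level 32.9 times as high in the unsorted cultures. H19 differed by -2.48 ± 0.58 (adjusted p = 1.98e-04) and Cdkn1c by 1.84 ± 0.50 (adjusted p = 0.00169). Dlk1 stood at 1.48 with a 95% interval of 0.20 to 2.75 and did not pass after adjustment (adjusted p = 0.0837). The intervals of Peg3 (-0.87 to 0.04), Ndn (-0.07 to 1.78), Meg3 (-0.48 to 1.03), Mest (-0.44 to 1.36), Grb10 (-1.63 to 0.40) and Plagl1 (-1.77 to 0.26) all included 0. With a correlation of 0.5 assumed for the shared ESC libraries, Dlk1 (adjusted p = 0.00479), Peg3 (0.031) and Ndn (0.0306) were called too. In bulk RNA, fewer cells that express a gene and less of its RNA per cell cannot be told apart. Whether library preparation also differed between sorted and unsorted samples is not labelled, so its part cannot be told apart from that of the sort.

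**Figure D3:**
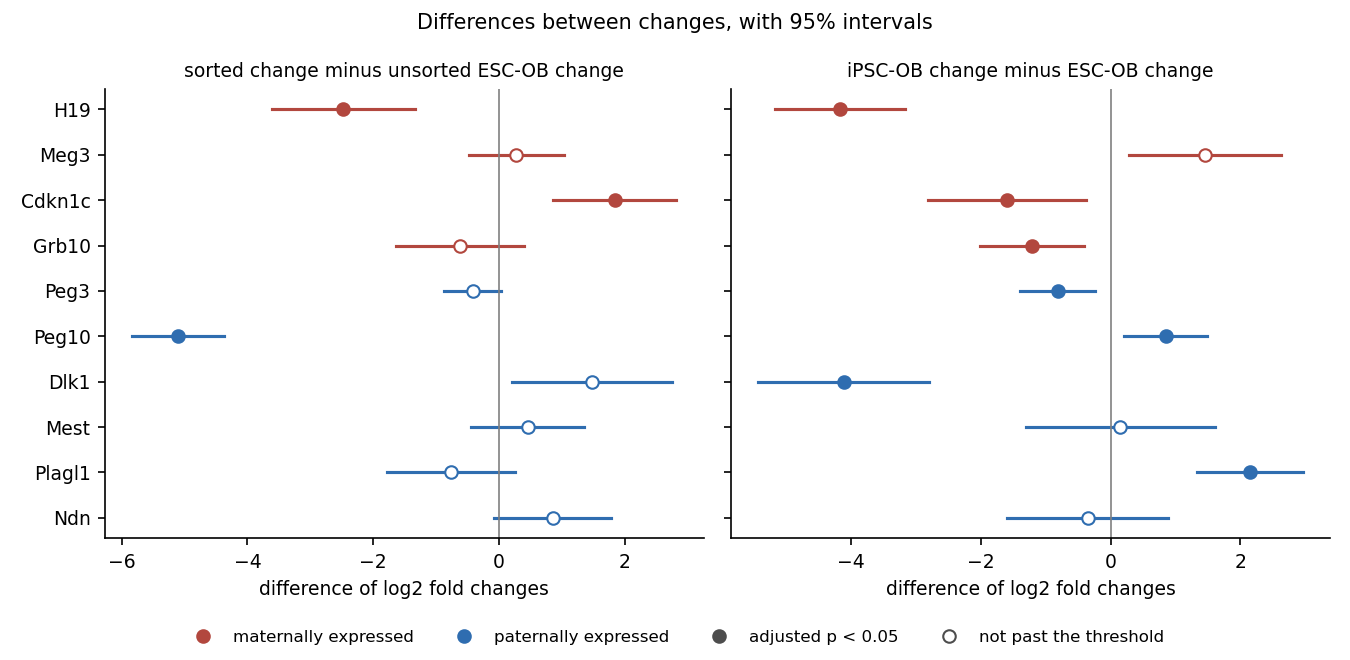
Difference between changes on the log2 scale (horizontal axis) with 95% intervals: sorted GFP+ minus unsorted ESC-OB on the left and iPSC-OB minus ESC-OB on the right, filled where adjusted p is under 0.05. Peg10 (-5.10) stands apart on the left, H19 (-4.18) and Dlk1 (-4.12) on the right. The intervals on the left count the error of the shared ESC libraries in both changes and are conservative.

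Summed levels of markers of other cell types differed between unsorted and sorted cells, though few single markers were called. Cardiac markers (5 genes) summed to 1362 CPM in ESC-OB and 351 in sorted GFP+, and endothelial markers (5 genes) to 219 and 80.2 CPM, with none of either list under the floor of 3 reads. The fibroblast or feeder markers summed to 2625 and 3962 CPM, and the yolk sac or liver markers (5 genes) to 224 and 419 CPM, with none under the floor. By the difference of changes, 1 of 5 cardiac (Myh6), 1 of 5 endothelial (Cdh5) and 2 of 5 fibroblast or feeder markers (Thy1 and Pdgfra) were called. Each was lower in the sorted cells, against the direction of the fibroblast sum. Of the yolk sac or liver markers 0 of 5 were called, where 24.5% of all genes were called in either direction. Of the trophoblast markers (4 of 5 with a row, 1 under the floor in each group), Krt7, a keratin of many epithelia, was at 324 and 1037.5 CPM, while Cdx2 was at 0.36 and 0.24 CPM and Prl3d1 went from 1.44 CPM to under the floor (adjusted p = 0.04 for the difference). The part of these markers in the differences of Peg10, H19 and Cdkn1c was not tested.

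Transcript length also moved with the difference between sorted and unsorted cells. Across 10418 genes of base mean 100 or more with an annotated length, the Spearman correlation of the difference with the longest transcript was -0.553, a description across genes of the same libraries. It was -0.0302 for iPSC-OB minus ESC-OB. In eighths by length, the median difference went from 0.69 for genes of 86 to 1683 nt to -0.99 for genes of 6576 to 123179 nt. Less the median of the 200 genes nearest in length, a setting chosen after seeing the data, Peg10 (6667 nt) differed by -4.44 and H19 (2286 nt) by -2.91, and both kept their calls. Cdkn1c (1901 nt) then stood at 1.29 and lost its call (adjusted p = 0.0604), and Meg3 (14548 nt in its longest form) rose to 1.64 and gained one (adjusted p = 3.24e-04). Grb10 against ESC gained a call in the same way (0.82, adjusted p = 0.0361).

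**Figure D4:**
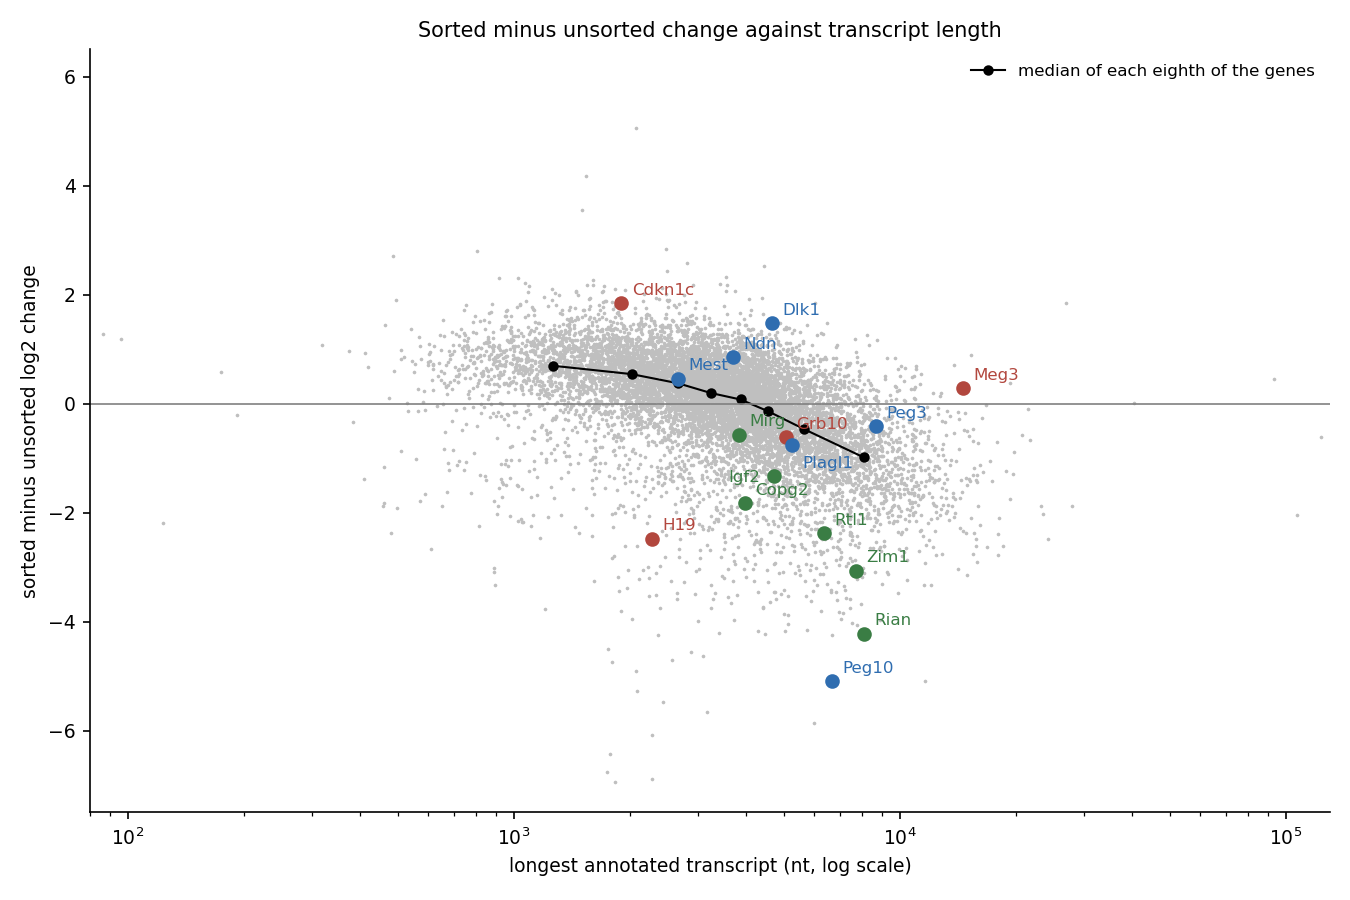
Sorted minus unsorted log2 change (vertical axis) against the longest annotated transcript (horizontal axis, nt, log scale) for 10418 genes in grey, the medians of 8 length classes in black, maternally expressed members in red, paternally expressed ones in blue and other genes of their clusters in green. Peg10 (-5.10) and Rian (-4.22) lie far below the median of genes of like length, and Meg3 (0.28) lies above it.

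In iPSC-OB against iPSC, 7 of the 10 members rose and none fell, where 26.1% of 17579 tested genes rose and 23.1% fell. The median log2 change was 2.88 for the maternally expressed members (3 of 4 rose) and 1.79 for the paternally expressed ones (4 of 6 rose), against 0.15 for all genes. H19 was estimated at 147 CPM in iPSC and 3112 in iPSC-OB, which the authors' deposited table puts at a change of 4.36 ± 0.30 (adjusted p = 5.01e-45). Dlk1 was at 7.55 and 253 CPM and rose by 5.02 ± 0.49, per the authors' deposited table (adjusted p = 2.26e-23). Both led the list here as they did in the ESC cultures.

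The authors' deposited table gives Plagl1, at 25.2 and 273 CPM, a rise of 3.39 ± 0.20 (adjusted p = 3.94e-63). It gives Meg3, at 33.3 and 471 CPM, a rise of 3.77 ± 0.53 (adjusted p = 1.21e-11, the authors' deposited table). Peg3 was at 222 and 1001 CPM and rose by 2.12 ± 0.24, per the authors' deposited table (adjusted p = 8.44e-17). Cdkn1c was at 41.8 and 171 CPM and rose by 1.98 ± 0.51 (adjusted p = 3.53e-04, the authors' deposited table). Peg10 was the most abundant paternally expressed member of iPSC-OB per kilobase of longest transcript, and it rose from 702 to 1999.6 CPM by 1.46 ± 0.19, per the authors' deposited table (adjusted p = 8.33e-13). The members that did not pass there were Grb10 (453 and 494 CPM, 0.08 ± 0.18, adjusted p = 0.756), Mest (78.0 and 109 CPM, 0.44 ± 0.67, adjusted p = 0.613) and Ndn (13.8 and 29.1 CPM, 1.03 ± 0.54, adjusted p = 0.0993) in the authors' deposited table. The intervals of Mest (-0.87 to 1.74) and Ndn (-0.02 to 2.09) are wide enough to hold changes of the size seen in ESC-OB, while that of Grb10 (-0.28 to 0.44) is not.

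The change from stem cell to osteoblast culture differed between iPSC and ESC for 7 of the 10 members, 2 being higher in the iPSC series and 5 lower, where 11.4% of 18165 genes were higher and 17.7% lower. H19 differed by -4.18 ± 0.51 (adjusted p = 1.63e-14) and Dlk1 by -4.12 ± 0.67 (adjusted p = 1.85e-08). Smaller differences in the same direction were those of Cdkn1c (-1.60, adjusted p = 0.0368), Grb10 (-1.21, adjusted p = 0.0139) and Peg3 (-0.81, adjusted p = 0.0236). Plagl1 differed by 2.14 ± 0.42 (adjusted p = 4.02e-06) and Peg10 by 0.85 (adjusted p = 0.0352) the other way. Meg3, at 1.45 ± 0.60, missed the threshold (adjusted p = 0.0506), and Mest (0.15) and Ndn (-0.36) were not called. Of the 4 maternally expressed members 3 were lower and none higher, and of the 6 paternally expressed ones 2 were lower and 2 higher.

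The levels of the 7 members called here were set side by side in the stem cells and in the osteoblast cultures. The fits were normalised separately, so these levels carry no test across them. H19 was 20.2 times as high in iPSC as in ESC, but 1.07 times as high in iPSC-OB as in ESC-OB. Dlk1 was 14.7 times as high in iPSC and 0.82 times as high in iPSC-OB. Plagl1 was 0.13 times as high in iPSC and 0.53 times in iPSC-OB. Grb10 was 4.79 times as high in iPSC and 1.99 times in iPSC-OB, Cdkn1c 4.30 and 1.37 times, and Peg3 2.77 and 1.52 times. Peg10 lay farther apart in the cultures, at 2.64 times in iPSC and 4.58 times in iPSC-OB. The iPSC also carried 129.6 CPM of the 5 fibroblast or feeder markers (all above the floor of 3 reads) against 7.82 CPM in ESC (1 under the floor). In the cultures, the yolk sac or liver markers summed to 1958 CPM in iPSC-OB (of which Afp 1659) against 224 in ESC-OB (Afp 16.0), and the cardiac markers to 193 against 1362 CPM. The part of these markers in the differences was not tested. The standard errors of the authors' folds level off at 1.29 in the iPSC table and 1.89 in the ESC tables, as with folds drawn towards 0 more strongly in the former. The levels are derived from these folds, so such drawing would raise the estimated stem cell level of a gene that rises. It would do so more in iPSC, so the iPSC to ESC ratios of rising genes may be too high.

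The clusters around the members were read gene by gene. Igf2, the paternally expressed growth factor next to H19, was at 1.86 CPM in ESC, 2463 in ESC-OB, 1025 in sorted GFP+, 65.6 in iPSC and 1926 in iPSC-OB. It rose by 10.27 ± 0.42, 8.95 ± 0.42 and 4.83 ± 0.34 in the 3 deposited tables of the authors (adjusted p = 8.47e-128, 1.38e-97 and 1.42e-43). H19 and Igf2, read from opposite copies, thus rose together in each comparison, and their iPSC change was smaller than the ESC change in both (Igf2 by 5.44, adjusted p = 1.61e-21). Igf2 overlaps the antisense gene Igf2os, and the kit named for most RNA does not mark the strand, so their reads cannot be told apart.

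In the Dlk1-Dio3 cluster, whose maternal RNAs are known to be silent in some mouse iPSC lines, 5 further genes had rows. Against ESC, ESC-OB had 3 of these higher and 1 lower, sorted GFP+ had 1 higher and 2 lower, and iPSC-OB against iPSC had 4 higher and none lower, where 38.6%, 39.1% and 26.1% of all genes were higher and 31.0%, 32.4% and 23.1% lower. Rian, a maternal non-coding RNA downstream of Meg3 that carries small nucleolar RNAs, was at 108 CPM in ESC, 233 in ESC-OB, 12.97 in sorted GFP+, 26.2 in iPSC and 211 in iPSC-OB. It rose by 1.00 ± 0.37 in ESC-OB and 2.96 ± 0.39 in iPSC-OB, and fell by 3.22 ± 0.38 in sorted GFP+ (adjusted p = 0.012, 7.12e-13 and 4.9e-17, the authors' deposited tables). Meg3 and Rian, read from the same strand and copy, thus moved in opposite directions in the sorted cells. The sorted minus unsorted difference of Rian (8089 nt) was -4.22 ± 0.53 (adjusted p = 9.79e-14), and -3.34 less genes of like length.

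Of the other genes there, Rtl1, a paternally expressed retrotransposon-derived gene, was at 2.19 ± 0.47 in ESC-OB and 4.55 ± 0.63 in iPSC-OB in the authors' deposited tables, past the threshold in each (adjusted p = 7.77e-06 and 4e-12). Rtl1 overlaps the microRNA gene Mir136 on the opposite strand, and reads from the 2 strands cannot be told apart without strand. Mirg, a maternal microRNA host, passed the threshold in the iPSC table, where it rose by 3.34 ± 0.66 (adjusted p = 2.41e-06, the authors' deposited table). Dio3, an enzyme that inactivates thyroid hormone, fell by 2.03 ± 0.81 in ESC-OB and rose by 2.48 ± 0.75 in iPSC-OB (adjusted p = 0.0192 and 0.00269, the authors' deposited tables). The iPSC change exceeded the ESC change for Rian (1.96), Mirg (2.97), Rtl1 (2.37) and Dio3 (4.50), with adjusted p of 0.00193, 9.57e-04, 0.0116 and 3.66e-04. In the undifferentiated cells Rian, Mirg and Rtl1 were 0.24, 0.14 and 0.24 times as high in iPSC as in ESC, beside 0.40 for Meg3. Coverage was thin in iPSC for Rtl1 (0.36 CPM, about 12.1 reads) and Mirg (0.81 CPM, about 27.4 reads), and in ESC-OB for Dio3 (0.61 CPM, about 16.1 reads).

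Around Peg10, its head-to-head neighbour Sgce, also paternally expressed, rose by 3.63 ± 0.29, 3.97 ± 0.28 and 3.57 ± 0.34 in the authors' deposited tables (adjusted p = 4.84e-36, 2.37e-43 and 2.68e-24). Sgce encodes a sarcoglycan and shares the control region of Peg10, and its sorted minus unsorted difference was 0.34 ± 0.40 (adjusted p = 0.67), beside -5.10 for Peg10. Of 7 tested neighbours of Peg10, 6 rose in ESC-OB and 6 rose and 1 fell in sorted GFP+, and of 8 tested in iPSC-OB 4 rose and 1 fell, where 38.6%, 39.1% and 26.1% of all genes rose and 31.0%, 32.4% and 23.1% fell. Copg2, which overlaps Mest on the opposite strand by 912 nt, fell by 2.09 ± 0.22 in sorted GFP+ (adjusted p = 6.06e-20, the authors' deposited table). Mest itself was called higher there, but the call was lost after re-centring on the median gene. Reads in that overlap cannot be told apart without strand. Zim1, the maternally expressed zinc finger neighbour of Peg3, rose by 6.95 ± 0.62, 3.88 ± 0.62 and 4.41 ± 0.31 in the authors' deposited tables (adjusted p = 3.5e-28, 1.26e-09 and 5.49e-43).

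In the Kcnq1 cluster of Cdkn1c, 3 of 10 neighbours rose and 5 fell in ESC-OB, 5 rose and 4 fell in sorted GFP+, and 3 rose and 3 fell in iPSC-OB, beside 38.6%, 39.1% and 26.1% of all genes that rose and 31.0%, 32.4% and 23.1% that fell. Phlda2, a maternally expressed gene that restrains the placenta, fell by 3.33 ± 0.50, 1.19 ± 0.38 and 2.49 ± 0.33 in the authors' deposited tables (adjusted p = 9.06e-11, 0.00326 and 1.02e-12), while Cdkn1c rose in each. Kcnq1ot1, the paternal non-coding RNA of the cluster, fell by 0.60 ± 0.25 in ESC-OB and rose by 1.49 ± 0.30 in iPSC-OB (adjusted p = 0.0216 and 2.67e-06, the authors' deposited tables). It overlaps Kcnq1 on the opposite strand. Near Ndn, none of 4 tested genes rose in ESC-OB or sorted GFP+, and Mkrn3 and Peg12, both paternally expressed, fell by 2.74 ± 0.47 and 2.36 ± 0.67 in ESC-OB (the authors' deposited table, adjusted p = 6.13e-07 and 8.46e-04). Ndn rose in both ESC comparisons, against these neighbours. In iPSC-OB none of 5 tested neighbours rose and 1, Magel2, fell, and Ndn itself was not called.

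Other imprinted genes moved in both directions, beside 38.6%, 39.1% and 26.1% of all genes that rose and 31.0%, 32.4% and 23.1% that fell in ESC-OB, sorted GFP+ and iPSC-OB. Of 25 further maternally expressed genes, 11 of 23 tested rose and 5 fell in ESC-OB, 12 rose and 9 fell in sorted GFP+, and 7 of 24 rose and 5 fell in iPSC-OB, with medians of 0.57, 0.65 and 0.93. Of 25 further paternally expressed genes, 10 of 23 tested rose and 10 fell in ESC-OB, 7 rose and 10 fell in sorted GFP+, and 12 of 24 rose and 2 fell in iPSC-OB, with medians of 0.14, -0.24 and 1.04. The called maternally expressed genes of largest change in ESC-OB were Osbpl5 (7.82) and Zim1 upward and Ascl2 (-3.79) and Tspan32 (-3.74) downward in the authors' deposited table. The paternally expressed ones were Igf2 and Airn (7.35) upward and Nespas (-3.41) and Mkrn3 downward in the same deposited table of the authors. Igf2r, the receptor that clears IGF2, was picked out after its values were seen, and it rose by 1.69 ± 0.25 in ESC-OB and 0.98 ± 0.23 in iPSC-OB and fell by 0.93 ± 0.25 in sorted GFP+ (adjusted p = 3.2e-11, 1.18e-04 and 3.19e-04, the authors' deposited tables). It overlaps Airn on the opposite strand.

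Genes for the upkeep of imprints fell. Of 11 such factors, 9 fell in ESC-OB, 11 in sorted GFP+ and 8 in iPSC-OB, and none rose, where 31.0%, 32.4% and 23.1% of all genes fell. Dppa3, which protects maternal methylation in the early embryo, was at 31.1 CPM in ESC and 0.064 CPM in ESC-OB, under the floor of 3 reads, so its fitted fold there is not given. It fell by 8.50 ± 0.59 in sorted GFP+ and 8.34 ± 0.65 in iPSC-OB in the authors' deposited tables (adjusted p = 2.65e-45 and 6.58e-36). Uhrf1, which brings the maintenance methyltransferase to replicating DNA, fell by 5.30 ± 0.29, 5.44 ± 0.29 and 2.27 ± 0.19 in the authors' deposited tables (adjusted p = 5.31e-71, 4.84e-77 and 3.93e-30). Zfp57, the factor whose hexamer is marked in the promoters shown above, was picked out after its values were seen, and it fell by 4.05 ± 0.19, 4.38 ± 0.19 and 1.04 ± 0.26 in the authors' deposited tables (adjusted p = 1.46e-96, 1.43e-118 and 2.0e-04). Of 5 genes of insulin and IGF signalling (the receptors Insr and Igf1r, the adaptors Irs1 and Irs2, and the ligand Igf1), 5 rose in ESC-OB, 4 in sorted GFP+ and 4 in iPSC-OB, where 38.6%, 39.1% and 26.1% of all genes rose. Igf1 was at 0.085 CPM in ESC, under the floor of 3 reads, and at 33.3 CPM in ESC-OB and 27.7 in sorted GFP+, and it rose by 4.87 ± 0.68 in iPSC-OB in the authors' deposited table (adjusted p = 1.87e-11). Irs1 rose by 7.87 ± 0.46, 6.18 ± 0.46 and 1.53 ± 0.29 in the authors' deposited tables (adjusted p = 3.3e-65, 8.45e-41 and 4.94e-07).

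Set per kilobase of the longest annotated transcript, so that genes can be roughly compared, H19 was the most abundant member in ESC-OB at 1268 CPM per kb and in iPSC-OB at 1361 CPM per kb. The longest form (14548 nt for Meg3, 4653 nt for Dlk1) need not be the one expressed, and another choice could move the order. In sorted GFP+ Cdkn1c (245 CPM per kb), H19 (237) and Dlk1 (193) were the 3 highest and Peg10 (1.99) the lowest, with no correction for the length dependence described above, so the order of the 3 is not settled. In ESC Peg10 (39.9) and Plagl1 (38.3) came first and Dlk1 (0.11) last, and in iPSC Peg10 (105), Grb10 (89.6) and H19 (64.2) came first.

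The genes whose 3 changes lay nearest those of a member, by Euclidean distance on the log2 scale among 9817 genes with a base mean of at least 100 in each fit, were Arf1 for Mest (distance 0.0911), Ypel5 for Ndn (0.124), Tbc1d31 for Grb10 (0.138), Nhsl2 for Plagl1 (0.226), Katnal1 for Peg3 (0.281), Car12 for Meg3 (0.332) and Lgals3 for Cdkn1c (0.487). The nearest to Dlk1 (Krt4, 0.713), H19 (Ntrk2, 0.891) and Peg10 (Marf1, 0.901) were farther off. The likeness is over 3 comparisons, of which 2 share the ESC libraries.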

How the data were processed

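The files are 3 tables of the authors' own comparisons, and they hold 0 columns of single samples. Per the submitters' processing notes, STAR 2.4.2a, DESeq2, R 3.2.2 and build mm9 were used, with no roles given; the counter, annotation and design formula are not given in the sources used here. Per the file headers, the columns are those of DESeq2 results. The authors' base mean is a signal, namely size-factor-scaled counts averaged over all libraries of a fit. The deposited log2 fold change comes with a standard error on that scale, the deposited score is their quotient, and the deposited p-value is followed by its Benjamini-Hochberg adjustment. In the authors' deposited tables Pou5f1, Nanog and Esrrb are strongly negative on the log2 scale, so positive was read as higher in differentiated cells. Both ESC tables share their base means and hence 1 fit. Their 19781 genes and the 19057 of the iPSC table were taken as deposited, and genes without an adjusted p (1573, 1193 and 1478) were not counted as tested.

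The authors' adjusted p under 0.05, from the table that DESeq2 columns describe, was the main test and nothing was refitted. Differences between changes were tested with a normal z (standard errors added in squares, two-sided) and Benjamini-Hochberg adjustment over all genes (Python 3.11.15, numpy 2.4.6, pandas 2.3.3, scipy 1.17.1). For sorted minus unsorted this is conservative, because the ESC libraries are shared. The computation was first run on simulated folds with independent normal errors of the deposited size. That run checks the arithmetic only, because it left out the shared ESC libraries and any drawing of folds towards 0. Library depths are size factors times the summed base mean of a fit. The size factors were read from the lowest base means, each a sum of what single reads are worth in the libraries. Such sums explained 474 of 474 base means under 0.5 in the ESC fit and 165 of 165 under 1 in the iPSC fit (tolerance 3e-09). Group levels in CPM (of 1000000) leave Rn45s out of the total and rest on these numbers of libraries. A floor of 3 reads per group came to 0.0427 CPM for sorted GFP+, 0.0886 for iPSC, 0.102 for ESC, 0.114 for ESC-OB and 0.116 for iPSC-OB, for counting error only.

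The members, the gene lists and the rule for named genes (all members, the listed genes of their clusters, the 2 called genes of largest change in each direction of a list, and the genes nearest in pattern) were chosen with earlier results of these data known. Transcript lengths are from GENCODE M21, and sequences and positions from RefSeq, build GRCm38.p6.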

Additional observations from a re-analysis of the deposited data

Results flagged for a closer look

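The change from stem cell to osteoblast culture differed between the iPSC and ESC series, by the test of the difference itself, for the members H19 (-4.18 on the log2 scale), Dlk1 (-4.12), Cdkn1c (-1.60), Grb10 (-1.21) and Peg3 (-0.81), each smaller in the iPSC series, and for Peg10 (0.85) and Plagl1 (2.14), each larger there. Among the genes of the H19 and Dlk1-Dio3 clusters it differed for Igf2 (-5.44), Rian (1.96), Mirg (2.97), Rtl1 (2.37) and Dio3 (4.50). Of these, Rtl1 (0.36 CPM in iPSC), Mirg (0.81 CPM in iPSC) and Dio3 (2.32 CPM in ESC, 0.61 in ESC-OB and 1.08 in iPSC) are thinly covered.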

How the results depend on the processing

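No paired analysis was possible because the files hold no values per sample, and for the same reason no replicate could be left out and the number of iPSC libraries could not be checked against samples. Testing for an absolute log2 change above 1 left 6601 of 12673 genes and 5 of 9 members in ESC-OB, 7571 of 13291 genes in sorted GFP+ and 2635 of 8649 in iPSC-OB, as a stricter question must. For iPSC-OB minus ESC-OB, a threshold of 0.01 left 3 of 7 members (H19, Dlk1 and Plagl1), and the sorted cells as the ESC side gave 8097 genes against 5274, with Grb10 (adjusted p = 0.237) and Peg3 (adjusted p = 0.282) no longer called and the sign turned for Phlda2 (-1.31), Cd81 (-0.00905), Zim1 (0.53) and Ppp1r9a (1.84). Meg3 was called there after re-centring on the median gene (adjusted p = 0.048) and over genes with a base mean of at least 10 (adjusted p = 0.0427). For sorted minus unsorted, a correlation of 0.5 for the shared ESC libraries gave 7028 genes against 4554 and 6 members against 3, adding Dlk1, Peg3 and Ndn. Re-centring on genes of like transcript length, chosen after seeing the data, gave 2783 genes, turned the sign of Ube3a there (0.97), and turned Kcnq1ot1 (0.69) and Ube3a (0.24) in sorted GFP+ against ESC. Under it Peg10 in ESC-OB (adjusted p = 0.428) and Mest in sorted GFP+ (adjusted p = 0.31) lost their calls; the cause was not tested. Among members, 2 values that were not called changed sign, namely the sorted minus unsorted difference of Peg3 on re-centring by length (-0.42 to 0.60, adjusted p = 0.0613) and the iPSC minus ESC difference of Mest with the sorted cells as the ESC side (0.15 to -0.31, adjusted p = 0.77). Taking the number of libraries from the labels multiplied iPSC levels by 0.78 to 0.955 and iPSC-OB levels by 0.842 to 1.03. Including Rn45s multiplied levels by 0.935 in ESC, 0.917 in ESC-OB, 0.996 in sorted GFP+, 0.944 in iPSC and 0.959 in iPSC-OB. The sorted cells thus held the smallest share of Rn45s reads, and the cause was not tested. Depth limits Dlk1 in ESC, at about 15.1 reads.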
